A study of Homo sapiens with 6 samples.

Results

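Ferritin and the genes of cellular iron handling were described in SK-N-SH, a neuroblastoma line of human origin. The control group had 6 h of plain medium (n = 3), and the other group had medium to which dopamine was added for that time (n = 3). The set was chosen by gene symbol: the ferritin chains FTH1 and FTL, the carriers TFRC, SLC11A2, SLC39A14 and SLC40A1, the ferritin receptor NCOA4, and the sensors IREB2, ACO1 and FBXL5. All 10 symbols were found, each on 1 of the 26789 gene rows, and all 10 passed the filter on low values (a mean of 1 FPKM or more), which left 11791 tested genes. FPKM divides the fragments of a gene by gene length and library size, so levels may be compared between genes. The cells of both groups are labelled wild type, and by their labels the groups differ in the dopamine alone. The labels print its dose as 40 M, without further explanation. All samples are labelled SK-N-SH, but the text on the design of the series speaks of SH-SY5Y, a subline of it. Nothing in the labels ties the replicates to separate cultures, so the spread that the p-values rest on may be technical.

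Cells hold surplus iron inside ferritin, a hollow shell built of heavy (FTH1) and light (FTL) chains. Iron bound to transferrin enters through the transferrin receptor (TFRC), crosses membranes through SLC11A2 and SLC39A14, and leaves through ferroportin (SLC40A1). NCOA4 carries ferritin to the lysosome, where its iron is released. The iron regulatory proteins IRP1 (encoded by ACO1) and IRP2 (encoded by IREB2) bind hairpins in mRNA called iron-responsive elements when iron is scarce. A hairpin before the coding sequence then blocks translation, as in ferritin and ferroportin mRNA, and hairpins after it protect the mRNA from decay, as in TFRC mRNA. FBXL5, a ubiquitin ligase subunit that senses iron, removes IRP2 when iron is plentiful. RNA levels do not show translation.

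The hairpins are shown because the matches found lie before the coding sequence in some of the genes and after it in TFRC. They do not sort all 10 genes by their control. GENCODE v29 transcripts (GRCh38) were searched on the transcribed strand, in untranslated regions only, for C, any 5 bases, CAGTG and any 6 bases, where the 5 bases before CAGTG pair with the last 5 (G with T allowed). Of 19684 protein-coding genes 168 held it (0.853%), and of the 10 iron genes 4 did. Windows of 29 bases are given 5′ to 3′ with DNA letters and the 6-base loop in capitals. The TFRC windows came from a single transcript. A match is a description of letters, and its absence in the other 6 genes says only that these letters were not found.
FTH1, before the coding sequence, chr11:61967574-61967602, minus strand: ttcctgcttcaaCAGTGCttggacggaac
FTL, before the coding sequence, chr19:48965335-48965363, plus strand: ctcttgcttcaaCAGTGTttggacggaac
SLC40A1, before the coding sequence, chr2:189580661-189580689, minus strand: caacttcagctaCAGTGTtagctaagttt
TFRC, after the coding sequence, chr3:196050979-196051007, minus strand: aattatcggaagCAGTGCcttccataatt
TFRC, after the coding sequence, chr3:196050575-196050603, minus strand: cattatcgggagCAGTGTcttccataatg
TFRC, after the coding sequence, chr3:196050510-196050538, minus strand: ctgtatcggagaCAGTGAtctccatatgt
TFRC, after the coding sequence, chr3:196050463-196050491, minus strand: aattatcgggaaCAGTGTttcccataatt
The FTH1 and FTL windows share the tgcttcaa before the loop and the ttggacggaac that follows it. CAGTG is part of the search pattern, so every window holds it. These positions are on GRCh38, whereas all gene positions below are on hg19, the build of the deposited table.

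Depth, estimated from the steps between low values of short pseudogenes, ran from 19393000 to 24222000 fragments per library, a ratio of 1.25. With lengths taken from the longest annotated transcript, the lowest library value stood for about 51 fragments in SLC40A1, 209 in IREB2 and 48120 in FTH1, so counting error matters for SLC40A1 and not for ferritin. The neuroblastoma identity of the cells was visible in both groups. The 8 adrenergic markers summed to 319 to 370 FPKM in control and 309 to 360 FPKM in dopamine libraries. The 6 mesenchymal markers summed to 1130 to 1270 and 1120 to 1170 FPKM, most of it VIM. Single markers differed: PHOX2A (80.3 to 84.6 and 65.2 to 73.6 FPKM) and GATA2 (24.1 to 28.6 and 21.7 to 23.5 FPKM) were lower in every dopamine library. SNAI2 was higher in every dopamine library (15.2 to 17.4 and 21.2 to 25.2 FPKM). The groups of the other markers of these 2 lists overlapped. None of the markers on them passed the limma test described below at an adjusted p under 0.05. Over all tested genes 38.4% had groups apart in either direction. Cells in which iron genes are known to be prominent left almost no trace. Markers of macrophages and other leukocytes summed to at most 0.752 FPKM (4 of 5 listed in the table, PTPRC at 0 in 5 libraries), those of red cell precursors to at most 0.0527 FPKM (1 of 5 listed, HBA1 at 0 in 4 libraries) and those of hepatocytes to at most 0.0679 FPKM (2 of 4 listed). The sum of the epithelial markers was lower in every dopamine library, at 140 to 175 FPKM in control and 105 to 121 FPKM in dopamine libraries, nearly all of it KRT18 and KRT8. EPCAM and CDH1 were at no more than 0.197 and 0.126 FPKM, and their groups overlapped. Their part in the results was not tested. In such bulk samples fewer cells of a type and less RNA per cell cannot be told apart.

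The iron genes had higher means with dopamine, but none of the 10 passed at 0.05 in a two-sided limma test (intensity trend, p adjusted by Benjamini-Hochberg over all tested genes). Over all tested genes 12 passed (0.102%), of which 10 were higher (0.0848%). All 10 iron genes had a higher mean, as did 60.0% of tested genes, but only 9 after median-of-ratios scaling and 8 after the GC and length correction described below. Fold changes are on the log2(FPKM + 0.5) scale, which understates those of low genes. The log2 fold change ran from 0.04 in FTL to 0.75 in TFRC, with a median of 0.38 against 0.08 over all tested genes. In 6 of 10 (FTH1, TFRC, NCOA4, FBXL5, SLC39A14 and SLC11A2) the 3 dopamine values all lay above the 3 control values, as they did in 24.4% of tested genes (38.4% were apart in either direction). At an unadjusted p under 0.05 (limma) 7 were higher and 0 lower, against 24.4% higher and 8.05% lower over all tested genes (32.5% in both). Scaling moved this split. Over all tested genes 2880 of the 3829 with such a p were higher as deposited, 1894 of 3650 after median-of-ratios scaling, where 4 of the 10 were among them (16.1% of tested genes), and 1708 of 3438 after quantile normalization, where 5 were (14.5%). The calls depended on control replicate 1: without it 5 of the 10 passed (TFRC, NCOA4, FBXL5, IREB2 and SLC39A14), as did 2177 genes in all. With sample quality weights 5 passed as well (FTH1, TFRC, NCOA4, FBXL5 and SLC39A14), among 2706 genes.

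**Figure D1:**
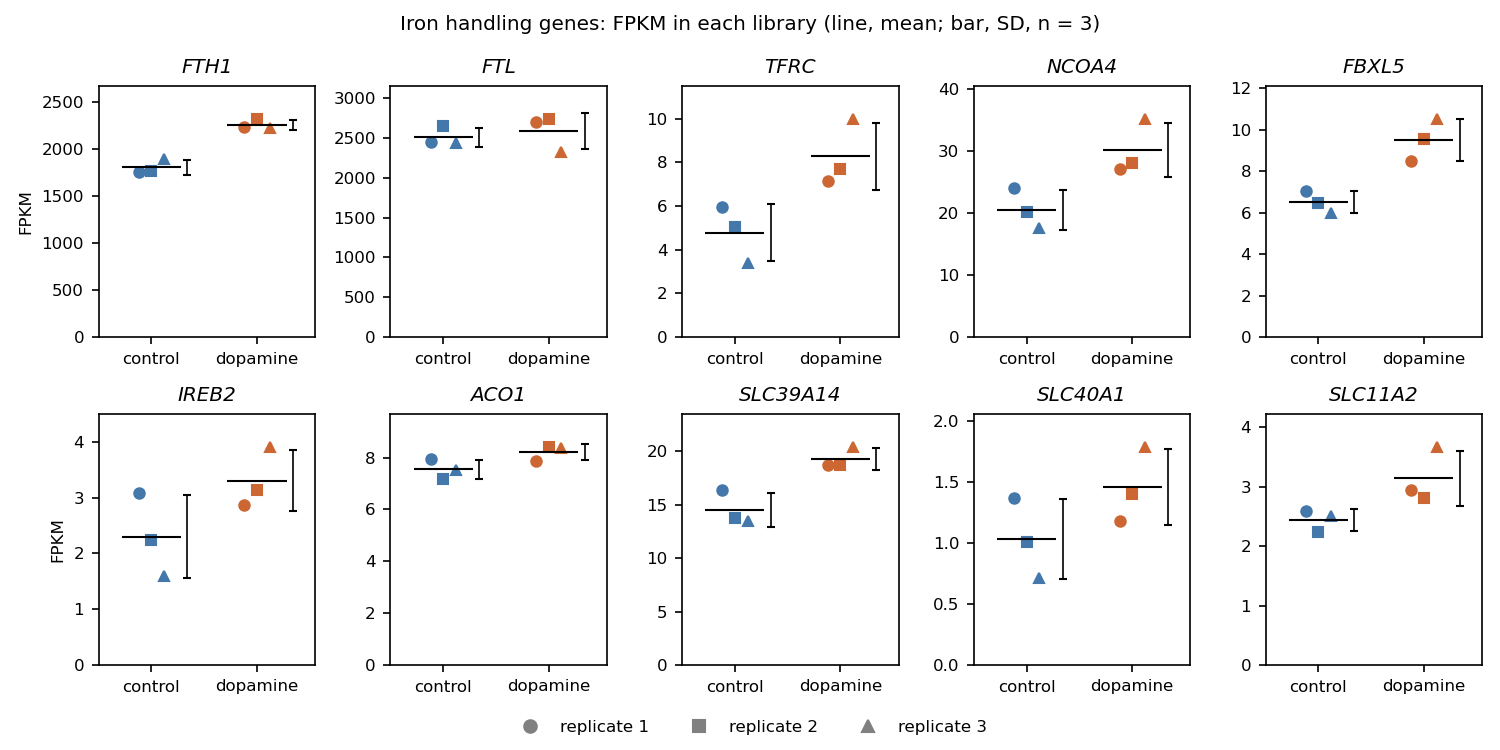
FPKM (vertical axes, from 0) of each gene in the 3 control and 3 dopamine libraries, with the mean as a line and the SD as a bar (n = 3). The groups are apart in FTH1, TFRC, NCOA4, FBXL5, SLC39A14 and SLC11A2, and they overlap in FTL, IREB2, ACO1 and SLC40A1.

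Ferritin RNA was among the most abundant in these cells. FTL ranked 4 and FTH1 ranked 8 among all genes by control mean, and the pair made up 1.83% ± 0.034 of the FPKM total in control and 2.07% ± 0.077 in dopamine cells (SD, n = 3 per group, two-sided p = 0.1 by an exact permutation test, which cannot go lower with 3 against 3). The next gene, NCOA4, stood at 20.5 ± 3.23 FPKM in control cells. In control cells the order of the other 8 from high to low was NCOA4, SLC39A14, ACO1, FBXL5, TFRC, SLC11A2, IREB2 and SLC40A1. Only SLC11A2 and IREB2 were neighbours whose control values overlapped. In dopamine cells FBXL5, TFRC and ACO1 followed SLC39A14 with values that overlapped from each to the next, and IREB2 overlapped SLC11A2.

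FTH1 (ENSG00000167996.11, chromosome 11, 61727190 to 61735132), whose chain oxidises iron as it enters the shell, had 1759, 1768 and 1894 FPKM in the control libraries, in the order of replicates 1, 2 and 3 that is kept below, and 2234, 2325 and 2225 FPKM with dopamine. Every dopamine library lay above every control library, and the gap between the groups was wider than the spread within either. The means were 1807 ± 75.5 and 2261 ± 55.6 FPKM, 0.32 apart on the log2 scale (SE 0.09, limma adjusted p = 0.11), or 1.25-fold with a 95% interval from 1.09 to 1.44. After quantile normalization, which sets every library to the same distribution, FTH1 was the only 1 of the 10 to pass (log2 fold change 0.46, SE 0.05, adjusted p = 0.00276). That method replaces each value by a mean over the libraries at its rank. FTH1 ranked 8 by control mean, so this fold change and its SE rest on rank shifts among the highest genes. The sign was positive in all 19 alternative settings, from 0.23 after median-of-ratios scaling to 0.46. The filters, the fit without a trend and the replicate block cannot move a fold change, so they do not test its sign.

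FTL (ENSG00000087086.9, chromosome 19, 49468558 to 49470135), whose chain helps the iron core form, had 2449, 2649 and 2432 FPKM in control and 2700, 2741 and 2327 FPKM in dopamine replicates 1, 2 and 3. Dopamine replicate 3 held the lowest value of the 6 and dopamine replicate 2 the highest, so the groups overlapped at both ends. The means were 2510 ± 120 and 2590 ± 228 FPKM, with a difference of 0.04 on the log2 scale (SE 0.11, adjusted p = 0.798). The 95% interval of the fold ran from 0.872 to 1.22. The sign was not fixed: it turned to -0.05 after median-of-ratios scaling and to -0.000922 without dopamine replicate 2.

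The balance of the chains was therefore compared within each library. The FTH1 to FTL ratio of FPKM was 0.718, 0.667 and 0.779 in control and 0.828, 0.848 and 0.956 in dopamine replicates 1, 2 and 3. All 3 dopamine ratios were above all 3 control ratios. The mean went from 0.721 ± 0.0557 to 0.877 ± 0.0689, 1.22-fold (two-sided p = 0.1 by the same exact permutation test, again its lowest value). A ratio within a library is not altered by 1 scaling factor per library, and it shows unequal change, not which chain changed. Corrections that shift the genes of a library unequally do alter it. FTH1 and FTL stood at 0.26 and 0.11 in log2 after the GC and length correction. After quantile normalization, which acts on the rank of a value in its library, they stood at 0.46 and 0.08.

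FTH1 and FTL have many near-identical copies in the genome that lack introns, and reads from the parent gene can be placed on them. The table lists 14 such rows named for FTH1 and 3 for FTL. Summed, the FTH1 copies stood at 219.5, 232.9 and 297.7 FPKM in control and 298.4, 283.9 and 325.1 FPKM in dopamine libraries. In FPKM this was 12.2 to 15.7% of FTH1 itself. The copies span 280 to 930 bases and the longest FTH1 transcript 1229, so by these lengths their share of fragments was smaller. Control replicate 3 lay above dopamine replicate 2 in this sum, so the groups overlapped. With or without the copies added to their parents, the log2 difference of the FTH1 to FTL ratio was 0.28.

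Of the 13 FTH1 copies that were tested, all 13 had a higher mean with dopamine (median log2 fold change 0.31, from 0.15 to 0.58), 6 had an unadjusted p under 0.05 (limma), 4 had groups that did not overlap (FTH1P7, FTH1P16, FTH1P3 and FTH1P4), and none passed (adjusted p from 0.11 to 0.443). Over all tested genes 60.0% had a higher mean, 24.4% were higher at that p, and 24.4% had groups apart with dopamine higher. All 13 copies were also higher in each of the other scalings tried. Both tested FTL copies were near 0, with FTLP2 at 0.11 and FTLP3 at -0.01. With the span of a copy taken as its counted length, its values can be read as fragments. FTH1P7 had about 99, 93 and 96 fragments in control and 121, 101 and 131 with dopamine. FTH1P2, the highest copy at 75.1 ± 14.2 and 92.3 ± 8.82 FPKM, had about 616 to 781 fragments in control and 695 to 905 in dopamine libraries, and these overlapped. Whether the fragments came from the copies or from FTH1 was not tested.

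FTH1 also shares 5798 bases of its locus with BEST1, which lies on the opposite strand. Far below FTH1, BEST1 had means of 7.22 ± 2.91 (control) and 7.80 ± 2.97 FPKM (dopamine). No source used here gives the strand setting of the authors' counting.

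**Figure D2:**
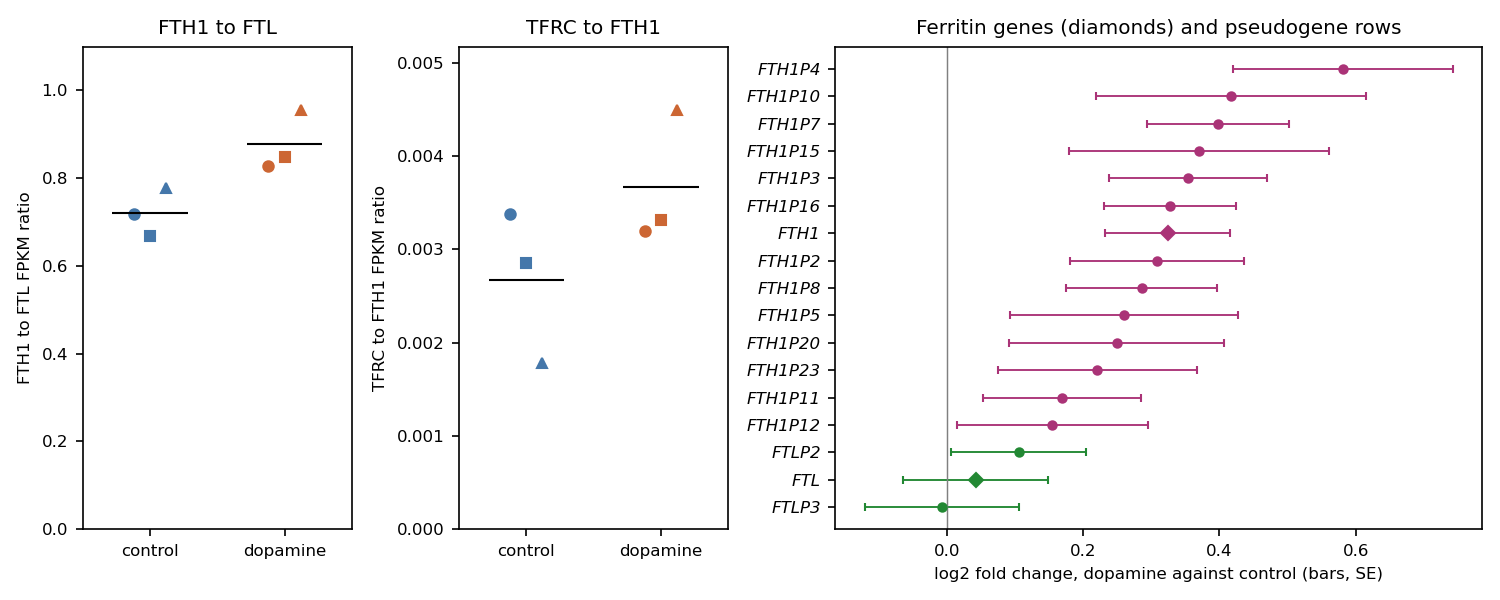
Left and middle, the FPKM ratio (vertical axes, from 0) of FTH1 to FTL and of TFRC to FTH1 in each library, by replicate (circle 1, square 2, triangle 3) with the group mean as a line. Right, the log2 fold change (horizontal axis, bars SE) of the ferritin genes (diamonds) and their tested pseudogene rows (circles), purple for FTH1 and green for FTL, where all FTH1 rows lie to the right of 0 and the FTL rows lie about 0.

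TFRC (ENSG00000072274.8, chromosome 3, 195754054 to 195809060), the receptor for transferrin-bound iron, had 5.94, 5.04 and 3.38 FPKM in control and 7.13, 7.70 and 10.0 FPKM with dopamine. The groups were apart, with control replicate 3 the lowest library and dopamine replicate 3 the highest. The means were 4.79 ± 1.30 and 8.28 ± 1.52 FPKM, the widest difference of the 10 at 0.75 in log2 (SE 0.19, adjusted p = 0.11), 1.68-fold with a 95% interval from 1.25 to 2.26. Without both samples numbered 3 the log2 fold change was 0.40 (SE 0.11, adjusted p = 0.277). The TFRC to FTH1 ratio was 0.00338, 0.00285 and 0.00178 in control and 0.00319, 0.00331 and 0.00450 in dopamine libraries. Control replicate 1 lay within the dopamine values, so the groups overlapped (means 0.00267 ± 0.000811 and 0.00367 ± 0.000721, n = 3 each, two-sided p = 0.3 by exact permutation). Leaving out 1 library moved the log2 difference of 0.49 to 0.22 without control replicate 3 and to 0.68 without control replicate 1.

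The transporters had smaller log2 fold changes than TFRC, and the difference from TFRC was not tested. SLC39A14 (ENSG00000104635.9, chromosome 8, 22224762 to 22291642), which carries zinc and iron into the cytosol, had 16.4, 13.8 and 13.5 FPKM in control and 18.7, 18.7 and 20.4 FPKM with dopamine. The groups were apart by 0.40 in log2 (SE 0.10, adjusted p = 0.11). SLC11A2 (ENSG00000110911.10, chromosome 12, 51373184 to 51422349), which moves ferrous iron out of the gut lumen and the endosome, had 2.59, 2.23 and 2.50 FPKM in control and 2.94, 2.81 and 3.68 FPKM in dopamine libraries. The groups were apart by a narrow margin and the log2 fold change was 0.30 (SE 0.13, adjusted p = 0.149). The exporter SLC40A1 (ENSG00000138449.6, chromosome 2, 190425305 to 190448484) was the lowest of the 10, at 1.37, 1.01 and 0.715 FPKM in control and 1.18, 1.41 and 1.79 FPKM in dopamine libraries. Its groups overlapped and the log2 fold change was 0.37 (SE 0.19, adjusted p = 0.207). It was 0.21 without control replicate 3 and 0.09 without both samples numbered 3. For SLC11A2 it was 0.20 without dopamine replicate 3.

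NCOA4 (ENSG00000138293.15, chromosome 10, 51565108 to 51590734), which delivers ferritin to the lysosome, had 24.0, 20.1 and 17.6 FPKM in control and 27.1, 28.1 and 35.2 FPKM with dopamine. The groups were apart and again had the samples numbered 3 at their outer ends. The log2 fold change was 0.54 (SE 0.13, adjusted p = 0.11), and 0.32 without both of those samples (adjusted p = 0.279).

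Of the iron sensors, FBXL5 alone had groups that were apart. FBXL5 (ENSG00000118564.10, chromosome 4, 15606162 to 15683302) had 7.06, 6.49 and 5.99 FPKM in control and 8.48, 9.53 and 10.5 FPKM with dopamine. The groups were apart and the log2 fold change was 0.51 (SE 0.11, adjusted p = 0.11), with the smallest unadjusted p of the 10 (rank 88 of the tested genes). It overlaps its neighbour FAM200B by 18 bases. IREB2 (ENSG00000136381.8, chromosome 15, 78729773 to 78793798) had 3.09, 2.23 and 1.59 FPKM in control and 2.87, 3.14 and 3.92 FPKM in dopamine libraries. Control replicate 1 lay above dopamine replicate 1, so the groups overlapped (log2 fold change 0.47, SE 0.20, adjusted p = 0.144), and the value was 0.16 without both samples numbered 3. ACO1 (ENSG00000122729.14, chromosome 9, 32384618 to 32454767), whose protein is an aconitase when it holds an iron-sulfur cluster and IRP1 when it does not, had 7.93, 7.19 and 7.53 FPKM in control and 7.88, 8.43 and 8.37 FPKM in dopamine libraries. The groups overlapped and differed by 0.12 in log2 (SE 0.09, adjusted p = 0.36).

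Grouped by the hairpins shown above, the genes with a match before the coding sequence had log2 fold changes of 0.32 (FTH1), 0.04 (FTL) and 0.37 (SLC40A1), and the gene with matches after it, TFRC, had 0.75. Genes without a match were left out of this grouping, whatever their control. No difference between these groups of genes was tested.

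**Figure D3:**
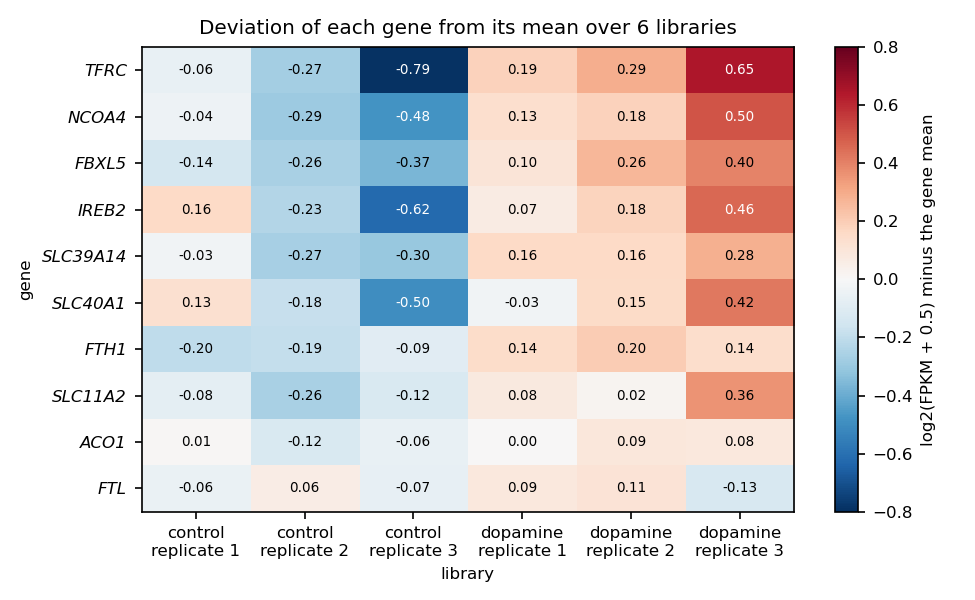
Deviation of each gene (rows) from its mean over the 6 libraries (columns), as log2(FPKM + 0.5), with blue below and red above the mean. Control replicate 3 and dopamine replicate 3 hold the ends for TFRC, NCOA4, FBXL5, IREB2, SLC39A14 and SLC40A1, whereas FTH1 divides evenly by group and FTL does not divide.

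The samples numbered 3 stood at the ends for most of these genes. Control replicate 3 held the lowest value in 6 of 10 and dopamine replicate 3 the highest in 7 of 10, against 33.1% and 44.2% of all tested genes. Without both samples, 7 of the 10 had groups that did not overlap with dopamine higher (FTH1, FTL, TFRC, NCOA4, FBXL5, SLC39A14 and SLC11A2), against 31.5% of tested genes, and 5 had an unadjusted p under 0.05 (limma, all higher), against 8.65%.

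The dependence of the values on GC content differed between the libraries. The slope of a library's deviation per 10 points of GC was 0.02, 0.11 and 0.22 log2 units for control and -0.03, -0.06 and -0.26 for dopamine libraries, so genes low in GC tended to be higher with dopamine. Of the 10 iron genes 8 had a GC content under the median of tested genes (49.4%), from IREB2 at 38.3% to SLC39A14 at 47.7%. FTH1 (50.1%) and FTL (56.3%) lay above it. After a loess correction of each library for GC content and transcript length, the median log2 fold change of the 10 was 0.12 against -0.0005 over all corrected genes. Since the slopes divide by group, GC content and dopamine cannot be told apart here.

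After the correction FTH1 was nearest to its uncorrected value, at 0.26 (SE 0.06). The others with a value over 0.2 were TFRC (0.39, SE 0.10), SLC39A14 (0.24, SE 0.06) and NCOA4 (0.23, SE 0.06). These 4 had an unadjusted p under 0.05 (limma), where 8.34% of corrected genes were higher at that p, and none passed (adjusted p from 0.146 to 0.157). FBXL5 went to 0.13 (SE 0.07), IREB2 to 0.05 (SE 0.09), SLC40A1 to 0.03 (SE 0.11), SLC11A2 to -0.01 (SE 0.09) and ACO1 to -0.11 (SE 0.08), so the last pair turned in sign. FTL was at 0.11 (SE 0.07).

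**Figure D4:**
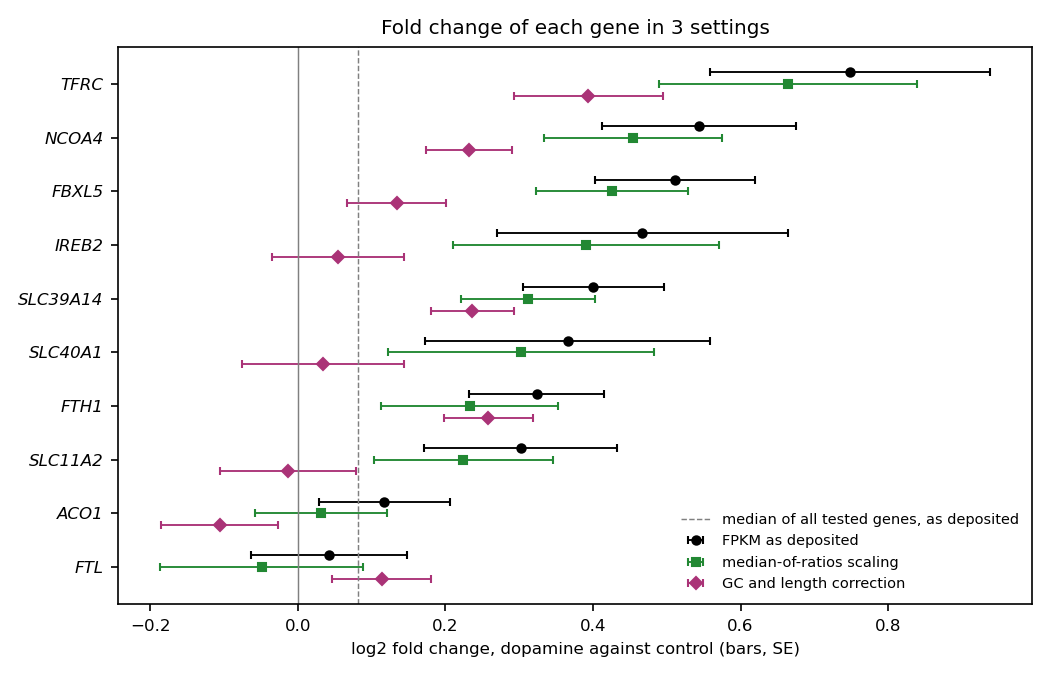
Log2 fold change (horizontal axis, bars SE) of each gene with FPKM as deposited (black circles), after median-of-ratios scaling (green squares) and after the GC and length correction (purple diamonds), with the median of all tested genes as a dashed line. TFRC, NCOA4, SLC39A14, FTH1 and FBXL5 stay right of 0 in all 3, with FBXL5 at 0.13 (SE 0.07) after the correction. IREB2, SLC40A1 and SLC11A2 come to about 0 after it.

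Of the RNAs listed as nuclear-retained, a sign of RNA or library quality, MALAT1 and KCNQ1OT1 were higher in every dopamine library. MALAT1 had 0.855 to 1.16 FPKM in control and 1.36 to 2.56 FPKM in dopamine libraries. KCNQ1OT1, far below the filter, had 0.0021 to 0.0054 and 0.0084 to 0.0105 FPKM. NEAT1 had 0.894 to 1.22 and 1.01 to 2.001 FPKM, so its groups overlapped, as did those of SRRM2. MALAT1 and NEAT1 were highest in dopamine replicate 3. Over all tested genes 24.4% had groups apart with dopamine higher. The whole list (4 of 5 in the table) summed to 53.1 to 65.0 and 51.1 to 58.5 FPKM. Nearly all of that sum was SRRM2, at 51.2 to 63.2 FPKM in control and 48.8 to 54.0 FPKM in dopamine libraries. The sum therefore says little about MALAT1 and NEAT1, and whether SRRM2 RNA stays in the nucleus was not checked here. The part of RNA quality in the differences was not tested.

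The other genes of iron metabolism had a median near that of all genes. Of 58 genes on 7 lists, 53 were in the table and 40 were tested. HMOX1, which frees iron from heme, rose from 33.0 ± 4.74 to 429 ± 39.5 FPKM (log2 fold change 3.69, SE 0.11, adjusted p = 6.06e-07), and the other 39 did not pass. The median log2 fold change of the 40 was 0.06 (0.04 without HMOX1), and at an unadjusted p under 0.05 (limma) there were 9 on the higher side and 0 on the lower, against 24.4% and 8.05% of all tested genes. After the GC and length correction there were 4 on each side.

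The lists differed among themselves in their medians. For iron uptake and reduction 4 of 11 genes were tested, with a median of 0.40. The zinc and iron importer SLC39A8 had 1.39 ± 0.294 and 2.06 ± 0.207 FPKM (adjusted p = 0.116), the ferric reductase CYBRD1 10.2 ± 2.27 and 13.1 ± 1.12 FPKM (adjusted p = 0.132), STEAP1 2.43 ± 0.743 and 3.45 ± 0.612 FPKM, and STEAP3, the reductase of the endosome, 16.4 ± 0.918 and 14.8 ± 0.417 FPKM. Partners of FBXL5 in its ligase had a median of 0.36 over 2 of 3 genes, with the scaffold CUL1 at 18.5 ± 3.37 and 25.3 ± 3.45 FPKM (adjusted p = 0.11) and SKP1 at 5.92 ± 0.635 and 7.19 ± 0.636 FPKM. All 6 were closer to 0 after the GC and length correction, with STEAP1 at 0.23, SLC39A8 at 0.19, CUL1 at 0.18 and SKP1 at -0.08.

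The chaperones that hand iron to ferritin had lower means with dopamine, in every scaling tried. PCBP1 had 198 ± 8.95 (control) and 180 ± 5.27 FPKM (dopamine), and PCBP2 had 15.8 ± 0.531 and 14.6 ± 0.572 FPKM. In both the 3 dopamine values lay below the 3 control values, and neither passed (log2 fold changes -0.14 and -0.12, adjusted p = 0.206 and 0.308). Over all tested genes 38.4% had groups apart in either direction, of which those with dopamine higher made up 24.4% of tested genes. HERC2, a ligase of NCOA4, had 4.51 ± 0.213 and 4.88 ± 0.306 FPKM. The mitochondrial ferritin FTMT was at 0 in 5 of the 6 libraries.

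Genes of iron-sulfur cluster assembly, a main use of iron, gave mixed values. In mitochondria 15 of 16 were tested (median 0.07), of which the assembly factor ISCA1 (6.77 ± 0.291 and 9.35 ± 0.774 FPKM, adjusted p = 0.11) and the scaffold ISCU (11.4 ± 0.996 and 14.2 ± 0.962 FPKM, adjusted p = 0.11) were among those whose groups were apart. FDXR, the reductase that supplies electrons, had 20.0 ± 0.574 and 18.0 ± 2.12 FPKM. In the cytosol all 9 were tested (median -0.08), with FAM96A at 9.74 ± 0.987 and 11.97 ± 0.856 FPKM the only 1 whose groups were apart, and NUBP2 at 14.9 ± 1.26 and 13.1 ± 2.18 FPKM, FAM96B at 89.3 ± 10.3 and 80.6 ± 9.06 FPKM and MMS19 at 15.7 ± 0.981 and 14.5 ± 0.968 FPKM below their control means. After the GC and length correction ISCU was at 0.13, ISCA1 at 0.11 and FAM96A at 0.0047 in log2.

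Besides HMOX1, the heme list held BLVRA, which reduces biliverdin (17.4 ± 0.234 and 19.2 ± 0.689 FPKM), the heme transporter SLC48A1 (4.04 ± 0.354 and 4.43 ± 0.0809 FPKM) and the heme exporter FLVCR1 (1.402 ± 0.384 and 1.57 ± 0.183 FPKM). Of the export list 1 of 8 genes was tested, NEO1, a coreceptor of hepcidin control, at 9.61 ± 0.741 and 10.3 ± 0.683 FPKM.

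**Figure D5:**
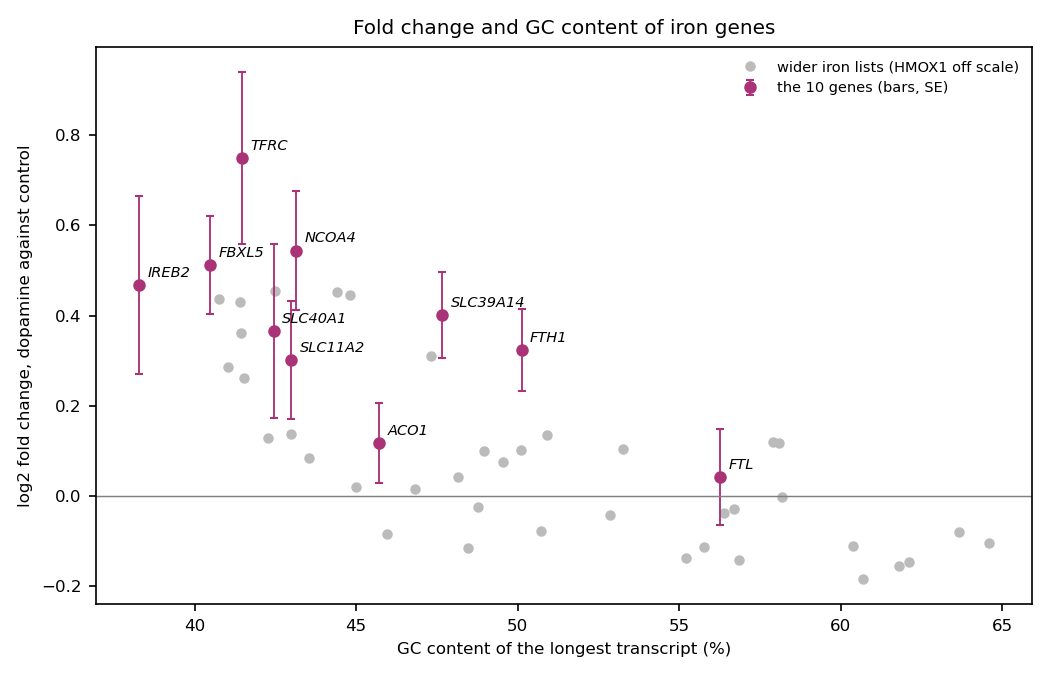
GC content of the longest transcript (horizontal axis, %) against the log2 fold change (vertical axis) of the 10 iron genes (purple, bars SE) and of 39 genes of the wider iron lists (grey), with HMOX1 beyond the scale. Genes low in GC lie higher, and FTH1 and SLC39A14 lie above the grey points of like GC content.

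The tested genes whose profile over the 6 libraries was most like that of FTH1, by the root mean square difference of the centred log2 values, were SYVN1 (0.0224 log2 units), MON1B (0.0284) and SLC12A8 (0.0383), where the deviation of FTH1 itself from its mean was 0.167. For FTL they were PSMB4 (0.0113), COMMD9 (0.017) and PREB (0.0182), against 0.0876 for FTL itself. For TFRC they were GOLGA4 (0.031), HSP90B1 (0.0386) and SLC39A6 (0.0396), against 0.455 for TFRC itself.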

How the data were processed

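RNA of 6 samples was sequenced as ribosome-depleted, stranded total RNA libraries, per the labels' protocols. The authors deposited 1 table of FPKM per gene on hg19. The submitters' processing notes name FastQC 0.11.9, STAR 2.7.1a, HTSeq 0.11.2 and DESeq2 1.40.2, without roles. No source used here gives the gene lengths behind the deposited FPKM.

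FPKM values were filtered at a mean of 1, taken as log2(FPKM + 0.5) and tested with limma 3.58.1 in R 4.3.3 with an intensity trend, without a block, with Benjamini-Hochberg adjustment at 0.05. Ratios of single genes were compared by exact permutation tests, two-sided. Depth was read from 2809 pseudogene rows of 150 to 1500 bases, where 92.4 to 94.0% of values were whole fragments within 0.03. GC content and length came from GENCODE v29 for 99.1% of tested genes (longest transcript, matched by gene ID, or by symbol for 100 genes), with a loess span of 0.5. The test was tried on simulated data.

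The members and lists were chosen with earlier results of these data known. Named genes are the 10 members, the ferritin pseudogenes with a mean of 1 FPKM or more, up to 4 genes of the smallest p per list, HMOX1, genes overlapping a member, and the 3 nearest profiles of FTH1, FTL and TFRC. FTMT and the cell type and RNA quality markers were named outside this rule. A gene that the rule names in the mitochondrial list is not reported here.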

Additional observations from a re-analysis of the deposited data

How the results depend on the processing

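Of 187 values of the 10 genes under the 19 alternatives, 170 kept their sign and side of the threshold, 11 came to pass it and 6 changed sign. In the filter, no-trend and replicate block settings the fold change cannot move, so only the side of the threshold was tried there. The sign changed for FTL after median-of-ratios scaling (-0.049) and without dopamine replicate 2 (-0.000922), and for ACO1 (-0.11) and SLC11A2 (-0.014) after the GC and length correction, with and without the replicate block. FTH1 passed after quantile normalization (0.46). With sample quality weights FTH1 (0.36), NCOA4 (0.46), SLC39A14 (0.41), FBXL5 (0.46) and TFRC (0.58) passed. Leaving out 1 library at a time gave 0.43 to 0.66 for NCOA4, 0.35 to 0.49 for SLC39A14, 0.44 to 0.59 for FBXL5, 0.54 to 0.91 for TFRC, 0.27 to 0.66 for IREB2, 0.21 to 0.52 for SLC40A1, 0.20 to 0.37 for SLC11A2 and -0.000922 to 0.12 for FTL. The first 5 of these passed only without control replicate 1, and the last 3 in none. The median of the 10 was 0.12 after the GC and length correction, also with the replicate block, against 0.38.

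The number of the 10 genes that passed was 1 after quantile normalization, 5 with quality weights and 0 to 5 without 1 library. Over all tested genes it was 12, and 6 with no filter, 27 after quantile normalization, 5 with no trend, 2706 with quality weights, 26 after the GC and length correction, 7 without both samples numbered 3, 6 at a threshold of 0.01, and 3 to 2177 without 1 library. Leaving out control replicate 1 gave 2177, control replicate 2 gave 3, control replicate 3 and dopamine replicate 1 gave 6 each, and dopamine replicate 3 gave 7. Of the wider iron lists 1 passed, 7 with quality weights and 1 to 7 without 1 library (7 without control replicate 1). The cause of these changes was not tested. With the replicate number as a block 3 genes passed, none of the 10. The deviations of same-numbered samples correlated at -0.20, 0.28 and -0.37, and not every sample correlated best with its own number. Each group was centred on its own mean first, which forces some values to be negative. These correlations therefore cannot tell whether same-numbered samples share a culture or a batch. A filter at 5 FPKM left out SLC11A2, IREB2 and SLC40A1. Depth limits SLC40A1 most, at about 51 to 132 fragments.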
